A study of Mus musculus with 9 samples.

Results

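A set of 10 genes that make, remodel or recycle the choline and ethanolamine phospholipids of the liver was followed across 9 mouse livers, with 1 Affymetrix array per animal. The genes were chosen as a list of symbols (Chka, Chkb, Pcyt1a, Pcyt2, Cept1, Chpt1, Pemt, Etnk2, Gpcpd1 and Lpcat3), with differences in these same data known, and the probe set to stand for each was selected on its mean level, the brightest among those annotated with a single symbol. Of the 10 listed genes 8 were measured, out of 19938 genes tested on the arrays. The probe set annotated with Chkb also carries the symbol Gm44502, so no value was named Chkb, and Etnk2 was not analysed here. Each of the 8 measured genes had 1 such probe set, and all 8 lay above the dimmest 40% of genes by mean level. Levels are log2 values from robust multi-array averaging (RMA), in which a step of 1 is a doubling.

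There were 3 wild-type C57BL/6J mice, 3 Clock-D19 mutant mice and 3 rescue mice, which were Clock-D19 mutants given 35 µg of an expression plasmid with WT-Clock in the pLIVE vector by hydrodynamic tail vein injection in week 10. Hydrodynamic injection delivers DNA mainly to hepatocytes, and a control injection of the other groups is not described in the labels. From 10 weeks of age every animal was fed a 45% fat diet over 5 weeks under a cycle of 12 h light and 12 h dark. Livers were taken at ZT10, which is 10 h into the light phase. The Clock-D19 protein still pairs with BMAL1, its partner in the circadian clock, but activates transcription poorly. The comparisons ask which phospholipid genes differ in mutant liver at this hour and which of them differ after Clock is supplied.

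Phosphatidylcholine is the main phospholipid of membranes, bile and secreted lipoproteins, and the liver makes it by both of the known routes. In the Kennedy pathway choline is phosphorylated by choline kinase, activated to CDP-choline and joined to diacylglycerol, and a parallel branch treats ethanolamine in the same way to give phosphatidylethanolamine. The other route, prominent in liver, methylates phosphatidylethanolamine to phosphatidylcholine with S-adenosylmethionine as methyl donor. Deacylation and glycerophosphodiesterases return choline from phosphatidylcholine, and lysophospholipid acyltransferases exchange its fatty acids.

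RefSeq promoter windows (GRCm38.p6) were matched for 8 of the 10 symbols, as 13 windows of 250 bases before to 50 after an annotated start. No window was matched for Pcyt2 or Gpcpd1, so neither was searched for motifs. The 8 symbols are thus not the 8 measured genes, and they include Chkb, which has no level here. The 250 bases before the start are shown for 3 genes whose level differed between mutant and wild-type liver: Chka (chr19:3851523-3851772, plus strand), the first of the windows of Pemt (chr11:60040189-60040438, minus strand) and Chpt1 (chr10:88503971-88504220, minus strand). They are written 5′ to 3′ on the strand of the gene, and capitals mark CCAAT on either strand. Both windows of Pemt lie inside the span of the gene (chr11:59970614-60046561), so its printed bases precede an annotated start within the gene.
Chka: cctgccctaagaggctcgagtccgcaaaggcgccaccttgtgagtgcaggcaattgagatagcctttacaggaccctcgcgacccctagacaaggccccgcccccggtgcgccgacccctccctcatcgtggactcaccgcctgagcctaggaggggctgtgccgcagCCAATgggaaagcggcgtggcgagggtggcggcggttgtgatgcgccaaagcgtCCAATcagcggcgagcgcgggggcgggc
Pemt: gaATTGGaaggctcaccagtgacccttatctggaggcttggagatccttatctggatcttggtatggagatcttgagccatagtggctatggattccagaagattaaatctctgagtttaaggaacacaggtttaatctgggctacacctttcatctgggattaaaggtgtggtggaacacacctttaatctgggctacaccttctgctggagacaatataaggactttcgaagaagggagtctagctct
Chpt1: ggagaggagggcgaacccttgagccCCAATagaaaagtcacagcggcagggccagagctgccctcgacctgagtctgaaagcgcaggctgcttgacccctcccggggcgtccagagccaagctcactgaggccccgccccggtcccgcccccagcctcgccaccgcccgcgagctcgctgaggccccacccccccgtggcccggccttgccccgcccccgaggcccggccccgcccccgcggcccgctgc
The E-box CACGTG, the sequence that CLOCK and BMAL1 bind, was searched on both strands and was found in 0 of the 13 windows, against 7.15% of all 32851 promoter windows in the table. The nuclear receptor motif AGGTCA was found in 1 window, of Pcyt1a, against 16.3% of all windows, and its extended form TAGGTCA, every match of which also holds AGGTCA, in 0 against 2.61%. The D-box TTATGNAA was found in 0 against 3.38%. CCAAT, a motif added after the windows had been seen, was found in 6 of the 13 windows, against 37.4% of all. These counts describe the letters in short windows and say nothing of binding elsewhere.

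The array medians over all probe sets lay between 5.97 and 6.08. RMA brings the arrays to a common distribution, so near-equal medians do not check them. Hepatocyte markers summed to between 14.95 and 15.28 (log2 of the summed level of 7 markers) on all 9 arrays, with overlapping ranges. In the mutant 1 of the 7 rose against wild type, where 6.37% of all genes rose and 9.02% fell by the test described below. Clock, the mutated gene, spanned 9.89 to 10.88 in mutant, 9.41 to 10.33 in rescue and 9.24 to 9.97 in wild-type livers. It rose by 0.94 in mutant against wild type (SE 0.26, limma adjusted p = 0.0266). In rescue it was 0.66 below the mutant (SE 0.26, limma adjusted p = 0.168), so no higher Clock level was seen after the plasmid. A gene-level value cannot tell the mutant transcript from that of the plasmid, so it does not check the labels. Markers of some other liver cells differed between the groups. Of 10 Kupffer cell and macrophage markers 6 fell in the mutant and none rose. Their summed level lay at 10.51 to 10.60 in mutant, 10.92 to 11.32 in rescue and 11.84 to 12.23 in wild-type liver. A sum weighs bright markers most, here Vsig4, at 9.02 to 9.29, 10.01 to 10.44 and 11.16 to 11.51 in the same order. In rescue against mutant 1 of the 10 rose, Vsig4 (1.10), where 2.61% of all genes rose. Of 10 endothelial markers 4 fell, with sums of 10.77 to 10.91, 11.01 to 11.34 and 11.34 to 11.54 in the same order. Of 8 stellate cell and pericyte markers 3 fell, with sums of 11.10 to 11.19, 11.43 to 11.57 and 11.53 to 11.68. Dcn was the brightest of these, at 10.41 to 10.51, 10.75 to 10.96 and 10.93 to 11.04. In rescue against mutant 2 of the endothelial and 3 of the stellate cell markers rose. Of 5 bile duct and 5 neutrophil markers none rose or fell in the mutant, and of 5 lymphocyte markers 1 fell. Fewer cells of a type and less RNA per cell cannot be told apart in whole liver, RMA values have no zero at which a marker would be absent, and the part of these cells in the values below was not tested.

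Between Clock mutant and wild-type liver, 5 of the 8 measured genes passed the test: Chka, Pcyt2 and Pemt rose, and Gpcpd1 and Chpt1 fell. Chka and Gpcpd1 moved most, in opposite directions, by 1.43 ± 0.15 and -1.71 ± 0.17 (SE, n = 3 per group) on the log2 scale. Pcyt1a, Cept1 and Lpcat3 did not pass. Passing means a limma p under 0.05 after Benjamini-Hochberg adjustment over all 19938 genes. By that measure 15.4% of all genes were called, 6.37% higher and 9.02% lower. The set was listed with earlier results of these data known, the rise of Chka among them, so its share is a description. The median difference of the 8 genes was 0.14, against 0.07 over all genes.

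**Figure D1:**
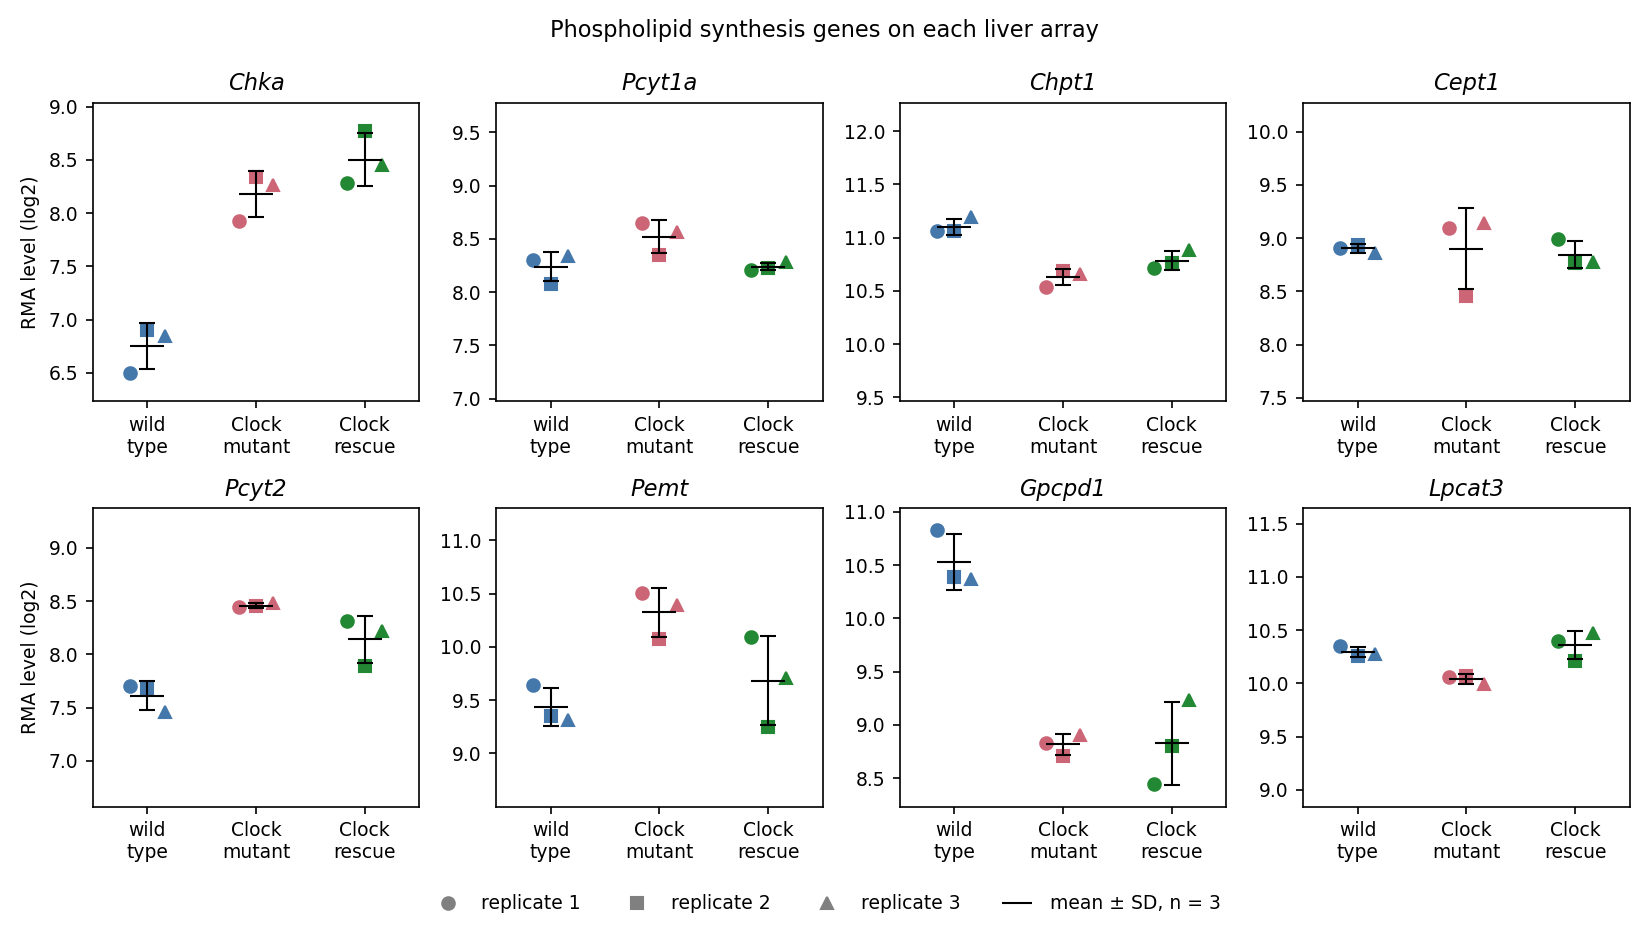
RMA level (log2) of the 8 measured phospholipid genes on each of the 9 liver arrays, by group; each symbol is 1 animal, bars give the mean ± SD of 3, and every panel spans the same range. Chka is low and Gpcpd1 high on the 3 wild-type arrays alone, while Pemt and Pcyt2 on the rescue arrays lie between or across the other groups.

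Choline kinase commits choline to the Kennedy pathway. Chka encodes its alpha form, which also accepts ethanolamine. Wild-type livers had Chka levels of 6.50, 6.90 and 6.85, mutant livers 7.93, 8.34 and 8.26, and rescue livers 8.28, 8.77 and 8.45 (replicates 1 to 3 in each, as for the genes that follow). All 6 arrays of mutant and rescue livers were above all 3 wild-type arrays, and the mutant and rescue values overlapped. The mutant exceeded wild type 2.69-fold (limma adjusted p = 5.83e-05), the rise of rank 9 among all genes, known when the set was listed.

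Pcyt1a encodes the enzyme that makes CDP-choline from phosphocholine, usually the rate-limiting step of the pathway. It read 8.30, 8.08 and 8.34 in wild type, 8.65, 8.35 and 8.56 in mutant and 8.21, 8.23 and 8.28 in rescue. Each mutant value was above every wild-type and rescue value, though the lowest of them, 8.35, barely cleared the highest wild-type value of 8.34. The difference of 0.28 ± 0.11 did not pass (limma adjusted p = 0.109). It did pass with quantile normalization repeated (0.34, adjusted p = 0.0426), with array weights (0.33, 0.0456) and with the trend of each array on the genomic length of genes removed (0.35, 0.0441).

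The last step, transfer of phosphocholine to diacylglycerol, is encoded by Chpt1, which uses choline only, and Cept1, which uses choline and ethanolamine. Chpt1 read 11.06, 11.06 and 11.19 in wild type, 10.54, 10.69 and 10.66 in mutant and 10.71, 10.76 and 10.88 in rescue. The 3 groups did not overlap, with rescue between the others. Chpt1 fell by 0.48 in mutant against wild type (SE 0.10, limma adjusted p = 0.00572), in the opposite direction to Chka. Cept1 showed no such shift: it read 8.91, 8.94 and 8.86 in wild type, 9.10, 8.46 and 9.14 in mutant and 8.99, 8.77 and 8.78 in rescue. The mutant values spread on both sides of wild type, the lowest being replicate 2, and the interval of the difference ran from -0.33 to 0.33 (95%).

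In the ethanolamine branch, Pcyt2 encodes the enzyme that makes CDP-ethanolamine. It read 7.70, 7.68 and 7.46 in wild type, 8.44, 8.45 and 8.48 in mutant and 8.31, 7.89 and 8.22 in rescue. The groups did not overlap, and the mutant arrays lay close together (SD 0.02, n = 3). Pcyt2 rose by 0.85 ± 0.12, or 1.8-fold (limma adjusted p = 4.59e-04).

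Pemt, the methyltransferase that turns phosphatidylethanolamine into phosphatidylcholine, also rose, by 0.89 ± 0.18, or 1.85-fold (limma adjusted p = 0.00431). Its values were 9.64, 9.35 and 9.31 in wild type, 10.51, 10.07 and 10.39 in mutant and 10.09, 9.25 and 9.71 in rescue. The mutant and wild-type values were apart, while the rescue values ran from below the lowest wild-type array to just above the lowest mutant array.

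Gpcpd1 encodes an enzyme that splits glycerophosphocholine, a breakdown product of phosphatidylcholine, and so releases choline. It read 10.83, 10.39 and 10.37 in wild type, 8.83, 8.71 and 8.91 in mutant and 8.45, 8.80 and 9.23 in rescue. The wild-type arrays stood well above all 6 others, and the rescue values lay on both sides of the mutant values. Gpcpd1 was 3.27-fold lower in mutant than in wild type (-1.71 ± 0.17, limma adjusted p = 3.66e-05), the fall of rank 14 among all genes.

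Lpcat3 adds polyunsaturated fatty acids to lysophosphatidylcholine and is a target of the liver X receptor (LXR), a sterol-sensing nuclear receptor. It read 10.35, 10.26 and 10.28 in wild type, 10.06, 10.07 and 9.99 in mutant and 10.40, 10.21 and 10.47 in rescue. The mutant arrays were below all others, but the difference of -0.25 ± 0.10 from wild type did not pass (limma adjusted p = 0.111). In none of the 18 alternatives did it pass.

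Counting values instead of tests, 7 of the 8 genes had mutant and wild-type groups that did not overlap, all but Cept1, and 35.7% of all genes did so (20.3% higher and 15.4% lower in the mutant). The 5 calls between mutant and wild type were made in each of 18 alternatives, which include leaving out each of the 9 arrays in turn. The range of the difference over them was 1.30 to 1.55 for Chka, 0.77 to 0.89 for Pcyt2, 0.80 to 1.02 for Pemt, -0.53 to -0.42 for Chpt1 and -1.79 to -1.56 for Gpcpd1.

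Rescue livers were then set against Clock mutant livers. None of the 8 genes passed limma's adjusted test, against 3.81% of all genes (2.61% higher and 1.20% lower), while 5 of the 8 had an unadjusted p under 0.05, as had 21.1% of all genes. For the genes that moved most in the mutant, the mean of Chka was 0.32 ± 0.15 above the mutant (limma adjusted p = 0.235), farther from wild type, and Gpcpd1 differed by 0.01 ± 0.17 (interval -0.36 to 0.38). For Gpcpd1 that interval holds no difference near the size of its fall in the mutant.

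Pemt had the largest measured difference, -0.64 ± 0.18 (limma adjusted p = 0.0613), with overlapping groups. It passed in 6 of the 18 alternatives. Among these were quantile normalization repeated (adjusted p = 0.0398), the dimmest 40% of genes left out (0.0389), array weights (0.0208), the span trend removed (-0.71, 0.0483) and the fit without rescue replicate 1 (-0.84, 0.0242), the rescue array with the highest Pemt level. Over all 18 its adjusted p ran from 0.0172 to 0.182.

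Lpcat3 (0.32 ± 0.10, limma adjusted p = 0.097), Pcyt2 (-0.32 ± 0.12, 0.149) and Pcyt1a (-0.28 ± 0.11, 0.176) had groups that did not overlap, as had Chpt1 (0.15 ± 0.10, 0.403), and 25.7% of all genes did so in this comparison. Lpcat3 passed with a trended and robust prior (adjusted p = 0.0432) and with array weights (0.37, 0.0336). The rescue mean of each of these 4 genes lay on the wild-type side of the mutant mean. The differences of the mutant from wild type and from rescue use the same mutant arrays. A chance shift of the mutant mean alone can thus give this order in genes whose mutant and rescue values do not overlap. No share of all genes with this order is given, and a return toward wild type was not tested. Cept1 differed by -0.06 ± 0.15 (interval -0.39 to 0.27).

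**Figure D2:**
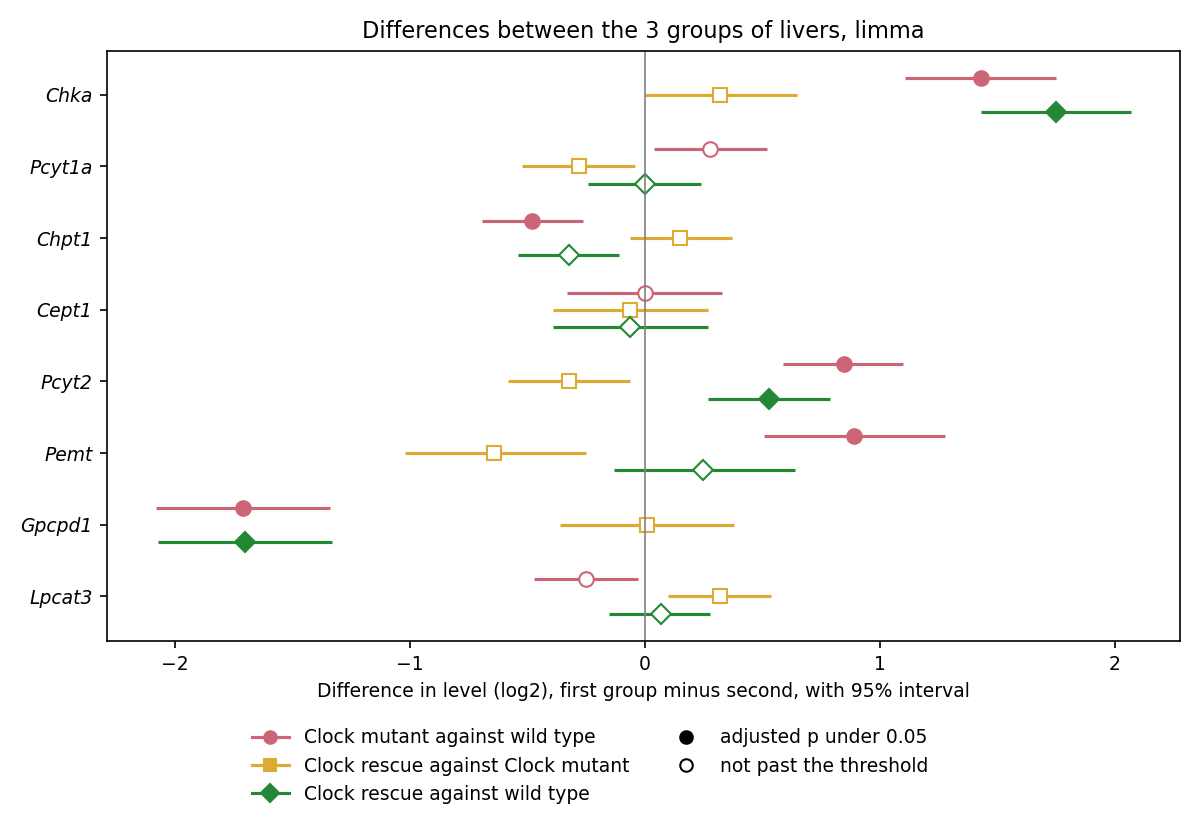
Difference in level (log2) of the 8 genes for the 3 comparisons, with 95% intervals from limma; filled symbols passed an adjusted p of 0.05 over all genes. Chka at 1.43 and 1.75 and Gpcpd1 at -1.71 and -1.70 keep a large difference from wild type in both mutant and rescue livers.

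Against wild type, 3 of the 8 genes still passed in rescue livers, where 2.28% of all genes were called (0.928% higher and 1.35% lower). Chka was 1.75 ± 0.15 higher, or 3.37-fold (limma adjusted p = 3.21e-05), and Gpcpd1 1.70 lower (-1.70 ± 0.17, 3.25-fold, adjusted p = 1.12e-04). By size these were the rise of rank 5 and the fall of rank 7 among all genes. Both passed in each of the 18 alternatives, with differences of 1.62 to 1.86 and -1.90 to -1.51. This comparison shares its wild-type arrays with that of the mutant and its rescue arrays with that above, so the 3 are not independent. Lasting differences from wild type were not particular to these genes. Of 12 measured core clock genes, listed as a reference, 1 rose and 7 fell in rescue against wild type, with a median difference of -0.52. In rescue against mutant 2 of the 12 rose and 1 fell, against 2.61% and 1.20% of all genes.

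In rescue livers Pcyt2 was 0.53 ± 0.12 above wild type (limma adjusted p = 0.0343), and this call was less stable. It was lost with each array centred on its median (0.49, adjusted p = 0.0533) and with the 6 arrays of the comparison alone (0.0604). It was also lost without rescue replicate 1 (0.44, 0.125) or 3 (0.49, 0.134) and without wild-type replicate 1 (0.57, 0.0645), 2 (0.56, 0.0584) or 3 (0.45, 0.146). Chpt1 was at -0.32 ± 0.10 (adjusted p = 0.128) and passed only with a trended and robust prior (0.042). In 4 of the 8 genes, Chka, Pcyt2, Chpt1 and Gpcpd1, the rescue and wild-type values did not overlap, as in 19.5% of all genes (8.95% higher and 10.5% lower).

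The remaining genes did not pass either, which does not show that they equalled wild type. The rescue values of Pemt ran from 9.25 to 10.09. Pemt differed by 0.25 ± 0.18 (interval -0.13 to 0.64), Pcyt1a by 0.00 ± 0.11 (-0.24 to 0.24), Cept1 by -0.06 ± 0.15 (-0.39 to 0.27) and Lpcat3 by 0.07 ± 0.10 (-0.15 to 0.28). An F test across the 3 groups called 5 of the 8 genes, with 12.9% of all genes called: Chka (adjusted p = 1.84e-05), Gpcpd1 (3.34e-05), Pcyt2 (0.00142), Pemt (0.0107) and Chpt1 (0.0149).

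Other genes of choline and phospholipid metabolism were taken from 13 lists by step in the pathway, 74 symbols besides the 10, of which 70 were measured. Between mutant and wild type 6 rose, 4 fell and 60 did not pass, a share of 14.3%, which is near that of all genes. In rescue against mutant 3 fell and none rose (4.29%), against 3.81% of all genes called in either direction and 1.20% called lower. In rescue against wild type 1 fell and none rose (1.43%), against 2.28% in either direction and 1.35% lower. The shares called in either direction are near those of all genes. The share that fell in rescue against mutant is above that of all genes but rests on 3 genes, Gnmt, Sardh and Bhmt2. All 3 also rose in the mutant, and both comparisons use the same mutant arrays, so rise and fall are not independent. The fall of Sardh was called in 13 of 18 alternatives and that of Bhmt2 in 7. The lists were chosen with earlier results known, so the share is a description. The median differences of the 70 genes were 0.07, -0.08 and 0.00, against 0.07, -0.05 and 0.01 over all genes.

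The lists of methyl donor and choline oxidation genes held 3 of the 6 rises. They had 3 and 6 measured genes, Pemt among the first 3, and 6.37% of all genes rose. Gnmt, which uses S-adenosylmethionine to methylate glycine, read 10.45, 10.66 and 10.30 in wild type, 11.45, 11.58 and 11.41 in mutant and 10.89, 10.44 and 10.78 in rescue. It rose by 1.01 ± 0.13 in the mutant (limma adjusted p = 2.42e-04) and fell by 0.78 in rescue against mutant (SE 0.13, adjusted p = 0.00839), with calls in each of the 18 alternatives of either comparison. Its group means had the same order as those of Pemt, also a methyltransferase, with rescue between mutant and wild type. Mat1a, which makes S-adenosylmethionine in liver, was at 0.25 ± 0.11 in mutant and -0.34 ± 0.11 in rescue against mutant, and passed in neither (adjusted p = 0.148 and 0.1).

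Sardh, the mitochondrial sarcosine dehydrogenase near the end of choline breakdown, read 9.73, 9.31 and 9.30 in wild type, 10.16, 10.03 and 10.04 in mutant and 9.56, 9.20 and 9.56 in rescue. It rose by 0.63 ± 0.14 (limma adjusted p = 0.00625) and fell by 0.64 in rescue against mutant (SE 0.14, adjusted p = 0.0229). Rescue and wild-type values overlapped and the mutant stood above both. The fall was not called without mutant replicate 1 (-0.60, adjusted p = 0.0832), 2 (-0.66, 0.0515) or 3 (-0.66, 0.0531) or without rescue replicate 2 (-0.52, 0.0837) or 3 (-0.70, 0.0509).

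Bhmt2, a methyltransferase that acts on homocysteine, rose by 0.48 ± 0.11 (limma adjusted p = 0.00833) and fell by 0.41 in rescue against mutant (SE 0.11, adjusted p = 0.0489). That fall was called in 7 of 18 alternatives. It was lost without any 1 of the mutant or rescue arrays (-0.47 to -0.37, adjusted p = 0.0692 to 0.142) and without wild-type replicate 1 (0.0589) or 3 (0.0554). Bhmt, which remethylates homocysteine with betaine made from choline, was at 0.31 ± 0.10 in the mutant (adjusted p = 0.0623), and Chdh, which starts choline oxidation, at -0.10 ± 0.11. Dmgdh (0.04 ± 0.11, limma adjusted p = 0.836) and Aldh7a1 (0.43 ± 0.16, 0.0827) of the same list did not pass either.

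**Figure D3:**
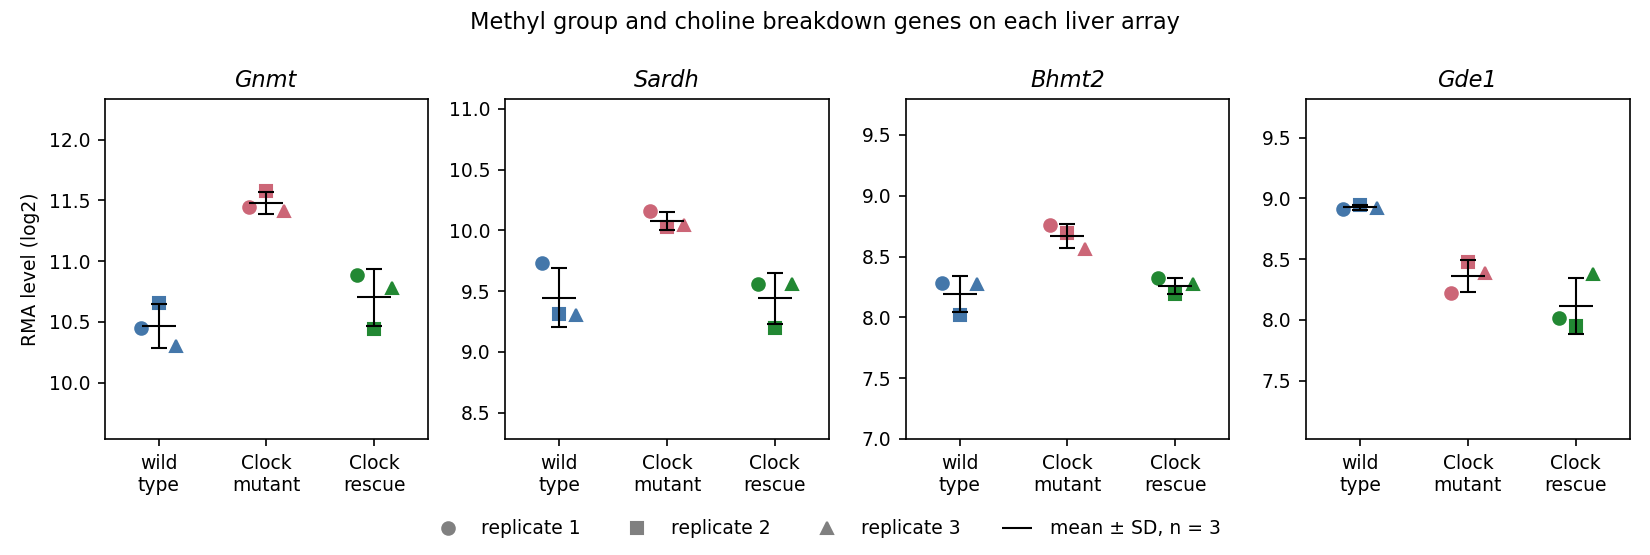
RMA level (log2) on each array of Gnmt, Sardh, Bhmt2 and Gde1, the 4 other pathway genes called in a comparison that involves rescue livers; symbols are animals and bars the mean ± SD of 3. The mutant arrays are the highest for Gnmt, Sardh and Bhmt2, while Gde1 is highest on the 3 wild-type arrays, at 8.91 to 8.95.

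Among genes that hydrolyse glycerophosphodiesters and lysophospholipids, Gde1 moved in the direction of Gpcpd1. Gde1 encodes a membrane glycerophosphodiesterase. It read 8.91, 8.95 and 8.92 in wild type, 8.22, 8.48 and 8.39 in mutant and 8.02, 7.95 and 8.38 in rescue. The wild-type arrays were above the 6 others. It fell by 0.56 in mutant (SE 0.12, limma adjusted p = 0.00666) and by 0.81 in rescue against wild type (SE 0.12, adjusted p = 0.00251), with calls in each alternative of both. Pnpla7, a lysophospholipase gene, rose by 0.45 ± 0.11 in the mutant (adjusted p = 0.0121), a call lost without wild-type replicate 3 (0.37, 0.0639).

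Lpcat3 belongs to a larger family of lysophospholipid acyltransferase genes, of which 9 were measured. In the mutant Lpcat2 fell by 0.58 (SE 0.12, limma adjusted p = 0.00463), Lpgat1 fell by 0.34 (SE 0.10, 0.0422), Lpcat4 rose by 0.42 ± 0.11 (0.0184) and Mboat1 rose by 0.36 ± 0.11 (0.0321). Mboat1 and Lpcat4 were among the dimmest 40% of genes. Of these 4 only Lpcat2 held in all 18 alternatives. Lpcat4 was lost without mutant replicate 3 (0.37, 0.0706) or wild-type replicate 3 (0.33, 0.092). Mboat1 was lost without mutant replicate 2 or 3 or wild-type replicate 1 or 3 (0.29 to 0.36, adjusted p = 0.0669 to 0.136) and with 2 scalings, and Lpgat1 without any 1 of the 6 mutant and wild-type arrays (-0.38 to -0.30, 0.0588 to 0.137). Lpgat1 was also lost with quantile normalization repeated (-0.30, adjusted p = 0.064) and with the trend on gene length removed (-0.24, 0.133). Pla2g4a, the cytosolic phospholipase that releases arachidonic acid, fell by 0.93 in mutant (SE 0.14, adjusted p = 5.88e-04) and was dim as well, at 5.00 to 5.44 on the mutant and 5.96 to 6.23 on the wild-type arrays. Lpcat2 and Pla2g4a are known from macrophages among other cells. Macrophage markers were lower on the same arrays, with the sums given above, and their part in these or the other falls was not tested.

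**Figure D4:**
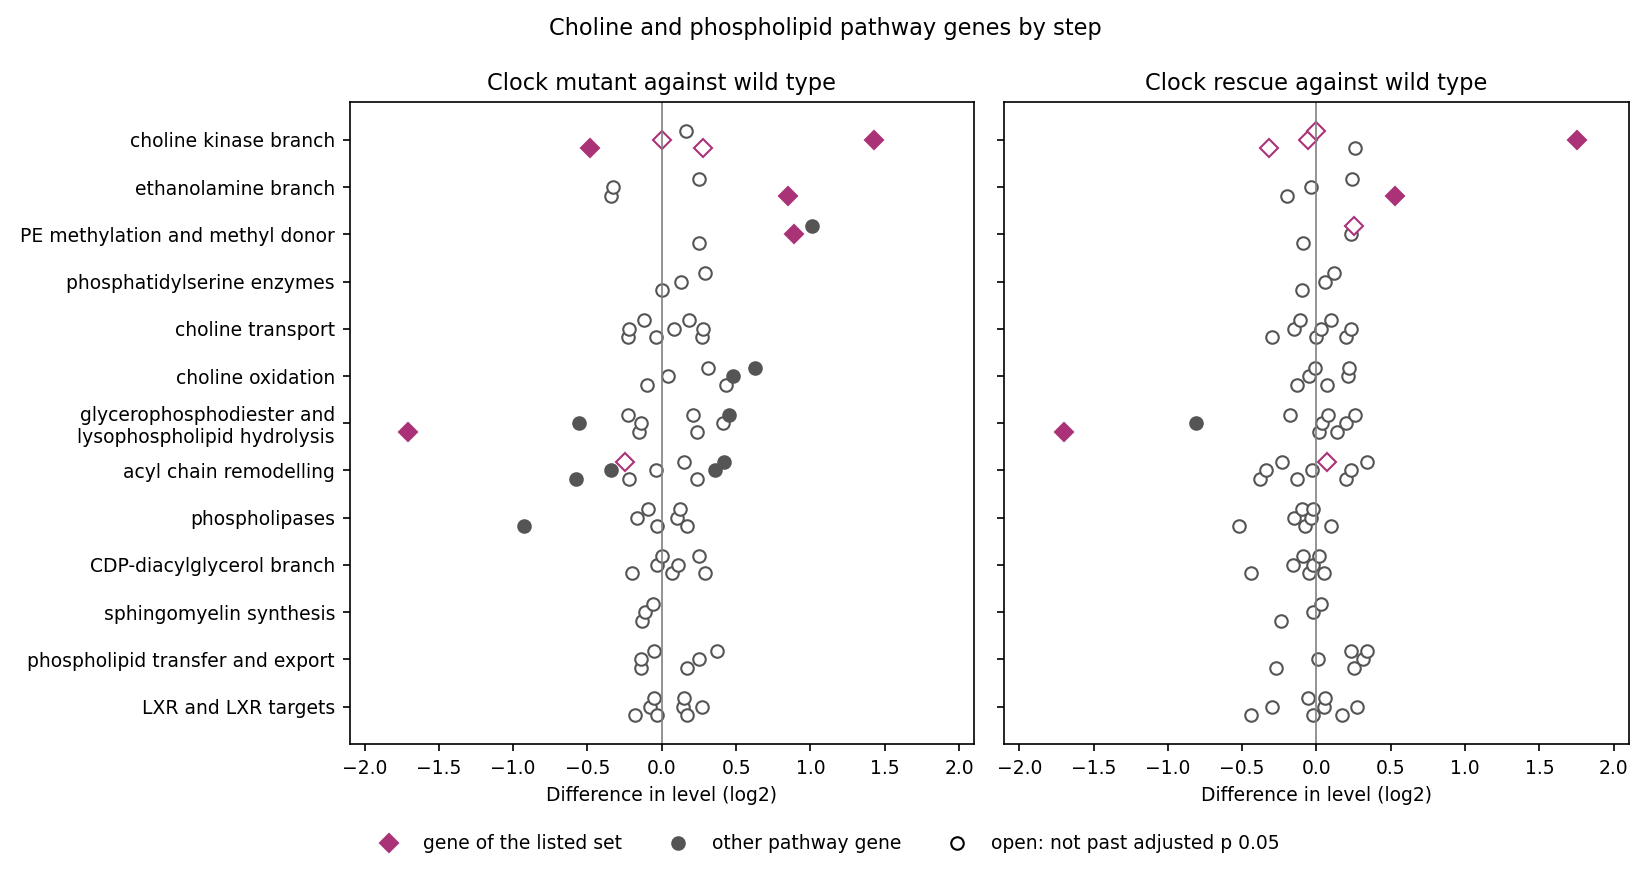
Difference in level (log2) from wild type of each measured gene of 13 pathway lists, for mutant livers (left) and rescue livers (right); diamonds are the genes of the set, circles other genes, and filled symbols passed an adjusted p of 0.05. In mutant livers filled symbols lie on both sides of 0, and in rescue livers they are Chka, Pcyt2, Gpcpd1 and Gde1.

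No gene passed limma's adjusted test in the mutant among the phosphatidylserine enzymes (1 of 3 had an unadjusted p under 0.05), choline transporters (2 of 8), the CDP-diacylglycerol branch (2 of 7), sphingomyelin synthesis (0 of 3), phospholipid transfer and export (2 of 6) or LXR genes and targets (0 of 8). Over all genes 30.7% had an unadjusted p under 0.05 in this comparison. The ethanolamine genes besides Pcyt2, none of which passed, were Etnk1, an ethanolamine kinase (-0.34 ± 0.12, adjusted p = 0.0785), Selenoi, the ethanolamine phosphotransferase (0.25 ± 0.09, 0.0907), and Etnppl, which degrades phosphoethanolamine (-0.33 ± 0.14, 0.119). Pcyt1b, the other form of the enzyme encoded by Pcyt1a, was dim and at 0.16 ± 0.10. Of the phosphatidylserine enzymes, Pisd, which makes phosphatidylethanolamine in mitochondria, was at 0.29 ± 0.12 (0.111). Among 8 measured LXR genes and targets 4 differences were above 0 and 4 below, with a median of 0.06, from -0.18 ± 0.13 for Srebf1 to 0.27 ± 0.14 for Nr1h3. Abcb4, which exports phosphatidylcholine into bile, was at 0.17 ± 0.12.

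Over the 9 arrays the 5 genes whose levels followed Chka most closely, out of 11434 named genes above the dimmest 40%, were Asap2 (Pearson r = 0.99), Clpx (0.98), the probe set annotated as Mir30d (0.97), Mogs (0.97) and Airn (0.96). The 5 most opposite were Fnip2, Fzd4, B4galt5, Gch1 and Tox, each at -0.98. Asap2, for example, read 6.57 to 6.70 in wild type, 7.60 to 7.65 in mutant and 7.81 to 8.07 in rescue. Among the set itself r with Chka was -0.93 for Gpcpd1, -0.77 for Chpt1, 0.73 for Pcyt2, 0.36 for Pemt, 0.19 for Pcyt1a, -0.20 for Lpcat3 and -0.21 for Cept1. These arrays fall into 3 groups that differ in level, so r holds the differences between groups as well as those within them, and it is given as a description over 9 arrays.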

How the data were processed

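The 9 arrays each hold the liver RNA of 1 mouse, 3 per group. RNA was extracted with TRIzol from tissue stored in RNAlater, per the labels' protocols. Each deposited file column holds log2 levels, 1 per probe set, for which the authors used RMA and Affymetrix Expression Console, as the submitters' processing notes name them, with no version given in the sources used here. Because RMA forces a common distribution on the arrays, a change shared by most genes would be lost, and folds of dim genes come out too small. That the scale is log2 follows from the value range, -0.46 to 13.86. No per-sample column was left unused, and no value was missing.

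Of 35556 probe sets, the platform annotation gave 21789 a single symbol, 1621 several and 12146 none. Entrez identifiers of 21698 matched the RefSeq gene table. The brightest probe set per gene was kept, which left 19938 genes. One linear model over 9 arrays was fitted in R 4.3.3 using limma 3.58.1 and had 6 residual and 8.47 prior degrees of freedom; statmod 1.5.0 was loaded for the robust prior. Plots were drawn by matplotlib 3.10.9 under Python 3.11.15. Benjamini-Hochberg adjustment ran over all 19938 genes. The p-values rest on the spread between animals within groups, pooled over the 9 arrays and moderated by limma with that of all genes. With 3 animals per group the number of arrays limits the precision.

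On simulated data of 19938 genes with independent normal noise, 100 genes were changed by 0.5 (log2) and 100 by 1 in each comparison. Of these 48% and 100% were called for mutant against wild type, 51% and 100% for rescue against mutant, and 42% and 100% for rescue against wild type. For mutant against wild type the simulation called 155 genes and the data 3068, so these rates may not hold for the data. The genes of the set, the pathway and marker lists, the tests and alternatives were chosen with earlier results of these data known. The text names all measured members and the called genes of each pathway list (at most 4). It also names the 5 genes most alike and most opposite to Chka. Uncalled genes and single markers named beside them, and the 4 marker lists whose sums are quoted, were chosen after their values were seen. The other marker lists were bile duct, lymphocyte and neutrophil, with median differences of 0.16, -0.30 and -0.09 in mutant against wild type, and a list of core clock genes served as reference (-0.56). Alternative fits used a block for replicate number, the dimmest 40% of genes left out, repeated quantile normalization, median centring, a trended and robust prior, array weights, the mean of all probe sets, a loess trend of each array on log10 gene span removed, the 6 arrays of a comparison alone, and each array left out.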

Additional observations from a re-analysis of the deposited data

How the results depend on the processing

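Of 432 values of the 8 genes under the 18 alternatives, 413 kept the side of the threshold they had in the report, 12 passed where the reported value did not, 7 no longer passed, and none that passed changed sign. Genes called over the whole array depended more on the setting. Mutant against wild type gave 3068 (1695 to 3130 with 1 array left out; 1695 without wild-type replicate 3 and 2035 without mutant replicate 1). Rescue against mutant gave 759 (200 to 692 with 1 array left out; 200, 323 and 340 without mutant replicate 1, 2 or 3, 202 and 201 without rescue replicate 2 or 3), 1178 without the dimmest 40% of genes, 1210 with a trended and robust prior and 1334 with array weights. Rescue against wild type gave 454 (233 to 501 with 1 array left out; 282, 254 and 264 without rescue replicate 1, 2 or 3, 242 and 233 without wild-type replicate 1 or 3), 711 without the dimmest 40% and 704 with the trended prior. The F test gave 2569 (1561 to 2443; 1561 without wild-type replicate 3 and 1611 without mutant replicate 1). The cause was not tested. In each comparison median centring or repeated quantile normalization shifted the split: 1270 rose and 1798 fell in mutant against wild type, 736 and 2078 with median centring; 520 and 239 in rescue against mutant, 541 and 438 with quantile normalization repeated; 185 and 269 in rescue against wild type, 154 and 374 with median centring.

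Of the 8 genes, 5 passed in mutant against wild type (5 in each fit with 1 array left out), 0 in rescue against mutant (0 to 1) and 3 in rescue against wild type (2 to 3). In rescue against mutant, 1 passed without the dimmest 40%, 1 with quantile normalization repeated, 1 with the trended prior, 1 with the span trend removed and 2 with array weights. Same-numbered arrays of different groups had correlated deviations from their group means in 4 of 9 pairs (r above 0.1; range -0.11 to 0.19), and arrays of other numbers in 2 of 18 (range -0.26 to 0.18). Since not every same-numbered pair was above 0.1, the numbers were not taken as pairs. With the replicate number as a block, 1 passed there, Pemt (adjusted p = 0.0172), and over all genes the block gave 3368, 931 and 507 calls in the order above. The fit on the mean of all probe sets of a gene left the differences of the 8 genes as they were, since each has 1 probe set. Gene span was known for 19855 genes.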
